A study of Mus musculus with 42 samples.

Results

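Schlafen genes encode a family of mouse proteins that hold immune cells in a resting state and act in the interferon response, and 7 of them, Slfn1, Slfn2, Slfn3, Slfn4, Slfn5, Slfn8 and Slfn9, were followed here in subcutaneous MC38 tumors. The 7 were chosen by name from the 26811 genes of the count table with their counts and treatment differences in these tumors already known, and no threshold was stated for the choice. All 7 were among the 16932 genes that passed the filter on low counts. Their differences between treatments are therefore a description, without a p-value of their own. MC38 is a colon carcinoma line of C57BL/6 origin, and every host was a female CC075/UncJ x C57BL/6J F1 mouse (CC75xB6), the offspring of a Collaborative Cross strain and C57BL/6J, aged 8 to 12 weeks at injection. The 42 tumors formed 5 groups named by what the host received. There were 5 isotype, 6 aPD1, 9 aPD1 + aGMCSF, 11 aPD1 + aIL2RB and 11 aPD1 + aGMCSF + aIL2RB tumors. Antibody against GM-CSF at 100 ug, antibody against the IL-2 receptor beta chain at 200 ug, or matching isotype antibody was given every 3 days from engraftment. At a tumor volume of 75 to 110 mm3 each host received 200 ug of aPD1 or of its isotype control, and tumors were taken 48 hours later. The RNA came from whole tumors, so MC38 cells and all host cells contributed to every value, and fewer cells of a type cannot be told apart from less RNA per cell.

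Short Schlafen proteins, encoded by Slfn1 and Slfn2, hold little more than the core shared by the whole family. Slfn3 and Slfn4 are of intermediate length, and the long members Slfn5, Slfn8 and Slfn9 carry a helicase-like domain. Slfn2 is known to keep T cells and monocytes quiescent and to shield tRNA from cleavage, and Slfn4 is known from activated macrophages and myeloid cells. Type I interferon induces target genes through a complex that holds STAT2 and IRF9, bound at interferon-stimulated response elements (ISRE). Interferon-gamma acts through gamma-activated sites (GAS). The coding sequences of the reference annotation ran from 1014 bases in Slfn1 and 1137 in Slfn2 through 1809 in Slfn4 and 1923 in Slfn3 to 2655 in Slfn5 and 2733 in both Slfn8 and Slfn9. The closest relatives were Slfn8 and Slfn9, identical at 92.7% of 2733 aligned coding bases, and Slfn3 and Slfn4, identical at 91.6% of 1782. All other pairs were between 54.9% and 73.3% identical.

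All 7 genes lie in 1 cluster of 335 kb on chromosome 11 at chr11:82951349-83286726 (GRCm38, GENCODE M21). In chromosome order these are Slfn5 at chr11:82951349-82964840, Slfn9 at chr11:82978390-82991830, Slfn8 at chr11:83002158-83020810, Slfn2 at chr11:83065112-83070678, Slfn1 at chr11:83116849-83122670, Slfn4 at chr11:83175186-83190216 and Slfn3 at chr11:83191330-83215154. Slfn8 and Slfn9 are on the minus strand and the other 5 on the plus strand. The pseudogene Slfn10-ps lies between Slfn8 and Slfn2, and Slfn14 closes the cluster. Slfn4 and Slfn3 are separated by 1.11 kb, the smallest gap of the cluster.

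The sequence before the start sites is shown for the pair Slfn8 and Slfn9, which are near-identical in coding sequence but differed in these tumors, and for Slfn4, whose pattern stood apart from that of the other called members. RefSeq promoter windows on GRCm38.p6 were found for all 7 members. The 250 bases before the start were searched on both strands for the ISRE core GAAANNGAAA and the GAS core TTCNNNGAA. The motifs can share bases, and no member window held both. Capitals mark an ISRE match, here on the strand opposite to the gene. Slfn8 is read from chr11:83020811-83021060 and Slfn9 from chr11:82991831-82992080, both on the minus strand, and Slfn4 from chr11:83174936-83175185 on the plus strand.
Slfn8: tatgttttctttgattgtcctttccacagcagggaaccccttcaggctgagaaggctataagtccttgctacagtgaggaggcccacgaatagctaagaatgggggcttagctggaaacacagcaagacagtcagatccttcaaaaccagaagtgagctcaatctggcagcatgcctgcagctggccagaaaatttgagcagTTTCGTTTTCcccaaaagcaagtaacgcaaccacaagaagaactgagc
Slfn9: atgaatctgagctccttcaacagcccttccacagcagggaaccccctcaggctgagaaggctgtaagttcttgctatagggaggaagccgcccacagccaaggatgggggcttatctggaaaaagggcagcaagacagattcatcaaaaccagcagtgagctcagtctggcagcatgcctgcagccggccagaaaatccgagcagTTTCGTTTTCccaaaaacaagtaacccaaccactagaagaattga
Slfn4: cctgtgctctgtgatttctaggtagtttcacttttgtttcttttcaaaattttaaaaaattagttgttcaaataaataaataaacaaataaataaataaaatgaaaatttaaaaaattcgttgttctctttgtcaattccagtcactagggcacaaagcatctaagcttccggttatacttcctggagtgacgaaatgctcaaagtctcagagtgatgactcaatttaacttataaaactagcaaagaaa
The same 10 letters, TTTCGTTTTC, stood from base -48 to -39 in Slfn8 and from -45 to -36 in Slfn9, counted back from the start, and the windows of the pair were identical at 83.3% of 245 aligned bases. Slfn8 has another RefSeq start, 88 bases inside the annotated gene, and from it the same match lay from base -136 to -127. Slfn5 held an ISRE match on its own strand from base -155 to -146. These bases are counted from a RefSeq start 753 bases inside the annotated span given above, so that the match too lies inside that span. It is given with its flanks, 30 bases at chr11:82951937-82951966 on the plus strand.
Slfn5: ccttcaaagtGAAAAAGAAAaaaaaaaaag
The windows of Slfn1, Slfn2, Slfn3 and Slfn4 held neither motif, and no window of a member held the GAS core. Of all 32851 promoter windows of that length, 2.98% held the ISRE core and 7.02% the GAS core. A match describes the letters and says nothing of binding. The Slfn4 window had the lowest share of G and C among the members, at 29.6%, against 48.0% to 52.0% for the others.

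The libraries held 7155486 to 24101674 counts, and each gene is given below as CPM, its count scaled to a common library size after TMM normalization. Tumors of earlier and later replicate numbers differed in many genes, and the comparisons of aPD1 with isotype and of each blocking treatment with aPD1 are therefore also given within each set. Every member had counts in all 42 tumors, with the lowest count at 91 for Slfn4. Divided by the merged exon length, a level that can be compared between genes, the median over the 42 tumors was highest for Slfn2 at 22.99 CPM per kb. Slfn9 followed at 12.0, Slfn8 at 7.84, Slfn5 at 6.49, Slfn1 at 4.99, Slfn3 at 4.09 and Slfn4 at 3.14 CPM per kb. In the aPD1 tumors the order changed, with means of 56.8 CPM per kb for Slfn2, 18.1 for Slfn1, 15.8 for Slfn8, 14.99 for Slfn5, 13.3 for Slfn9, 7.31 for Slfn4 and 4.42 for Slfn3. From Slfn1 to Slfn9 in this order, each step between neighbouring means was smaller than the SD of the genes on either side of it.

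Marker genes of host cells were measured in the same tumors. Ptprc (CD45), carried by leukocytes, ranged from 149.7 to 180.4 CPM in isotype, 205 to 412 in aPD1, 142 to 229 in aPD1 + aGMCSF, 94.8 to 187 in aPD1 + aIL2RB and 86.8 to 368 in aPD1 + aGMCSF + aIL2RB tumors. Macrophage markers (6 genes) summed to 2199.5 to 2690.3 CPM in isotype, 2533 to 4884 in aPD1, 1926 to 2323 in aPD1 + aGMCSF, 1761 to 2636 in aPD1 + aIL2RB and 1500.1 to 3174 in aPD1 + aGMCSF + aIL2RB tumors. Monocyte markers (5 genes) summed to 156 to 179 CPM in isotype, 209 to 394 in aPD1, 141 to 205 in aPD1 + aGMCSF, 120 to 267 in aPD1 + aIL2RB and 90.5 to 287 in aPD1 + aGMCSF + aIL2RB tumors. These leukocyte markers thus reached their highest values in aPD1 tumors. T cell markers (6 genes) summed to 25.6 to 47.5 CPM in isotype, 55.7 to 113 in aPD1, 22.4 to 63.0 in aPD1 + aGMCSF, 2.92 to 26.2 in aPD1 + aIL2RB and 0.975 to 58.9 in aPD1 + aGMCSF + aIL2RB tumors. By edgeR's quasi-likelihood test with Benjamini-Hochberg adjustment, 5 of 6 macrophage, 3 of 5 monocyte, 1 of 4 neutrophil and 3 of 4 fibroblast markers and Ptprc were higher in aPD1 than in isotype tumors, 1 of 4 fibroblast markers (Dcn) was lower, and 0 of 6 T cell, 0 of 4 NK cell, 0 of 5 dendritic cell, 0 of 4 B cell and 0 of 5 MC38 or epithelial markers were called. The markers not called were not all level, and the median log2 fold change was 0.98 for the T cell and 0.55 for the NK cell list, against 0.59 for the macrophage list. NK cell markers (4 genes) summed to 7.05 to 9.40 CPM in isotype, 7.29 to 22.2 in aPD1, 4.96 to 11.3 in aPD1 + aGMCSF, 0.806 to 3.16 in aPD1 + aIL2RB and 0.527 to 5.13 in aPD1 + aGMCSF + aIL2RB tumors. Of the defining markers, Ncr1 (NK cells) was at 0 counts in 21 tumors, Retnlg (neutrophils) in 33, Cd209a (dendritic cells) in 12, Ms4a1 (B cells) in 11, and Krt8 and Krt18 (epithelium) in 10 each. The part of these cell markers in the Schlafen values was not tested.

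The first comparison asks what a single dose of aPD1 did to the tumors. Here 5 of 7 members, Slfn1, Slfn2, Slfn4, Slfn5 and Slfn8, were called (adjusted p under 0.05 over 16932 genes) and all 5 were higher in aPD1 than in isotype tumors, while 8.71% of all genes were called. The members were chosen with this contrast known, so nothing is read from the difference between these shares. For the same 5 members the lowest aPD1 tumor lay above the highest isotype tumor, as was so, or the reverse, for 4.51% of all genes. Slfn3 and Slfn9 were not called, and their groups overlapped. Both had an unadjusted p under 0.05 by edgeR, a threshold that takes no account of the number of genes tested. Without isotype replicate 1, Slfn9 was called too, at a log2 fold change of 0.47. The median log2 fold change of the members was 1.201 and that of all genes was -0.002. Without TMM, scaled by library size alone, the same count of members was called at a median of 1.106, but the split over all genes turned from 1045 higher and 430 lower to 769 higher and 1174 lower.

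Slfn1, a growth-restraining member first described in thymocytes, was at 8.03, 10.4, 9.42, 10.0 and 8.50 CPM in the 5 isotype tumors. In the 6 aPD1 tumors it ranged from 13.7 to 51.7 CPM with a median of 37.3. Every aPD1 tumor lay above every isotype tumor, and aPD1 replicates 2 and 3 were the lowest of their group. The log2 fold change was 1.86 (SE 0.37, 3.64-fold).

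Slfn2, the quiescence factor of T cells and monocytes, was at 38.8, 49.2, 37.1, 42.4 and 38.2 CPM in isotype tumors. In aPD1 tumors it ranged from 49.7 to 132 CPM with a median of 104. The lowest aPD1 tumor, replicate 2, was next to the highest isotype tumor, and the other aPD1 tumors stood clear of the isotype group. The log2 fold change was 1.201 (SE 0.24, 2.299-fold).

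Slfn4, the myeloid member, was at 7.74, 4.97, 9.58, 9.41 and 9.29 CPM in isotype tumors and ranged from 15.2 to 38.8 CPM with a median of 32.7 in aPD1 tumors. Its groups did not overlap. The log2 fold change was 1.82 (SE 0.36, 3.53-fold), close to that of Slfn1.

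Slfn5, the long member at the edge of the cluster, was at 32.6, 30.5, 30.2, 21.9 and 29.0 CPM in isotype tumors. In aPD1 tumors it ranged from 48.6 to 138 CPM with a median of 103, again with replicates 2 and 3 lowest and without overlap. The log2 fold change was 1.72 (SE 0.25, 3.29-fold), larger than that of the other long members. The annotated antisense gene Slfn5os overlaps Slfn5 and had counts in 2 tumors.

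Slfn8 was at 37.7, 31.4, 26.8, 26.7 and 28.3 CPM in isotype tumors and from 39.3 to 83.2 CPM, median 68.9, in aPD1 tumors. The highest isotype tumor, replicate 1, lay just below the lowest aPD1 tumor, replicate 3. The log2 fold change was 1.104 (SE 0.22, 2.15-fold).

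Slfn9, the near-identical neighbour of Slfn8 with the same ISRE match, was at 83.5, 48.6, 71.9, 40.1 and 68.0 CPM in isotype tumors and from 59.6 to 98.1 CPM, median 80.6, in aPD1 tumors. The groups overlapped over most of their range, and the log2 fold change was 0.35 (SE 0.14, 1.27-fold). Slfn3, the close relative of Slfn4 that was studied in T cells and gut epithelium, was at 14.7, 10.0, 14.3, 8.65 and 14.2 CPM in isotype tumors. In aPD1 tumors Slfn3 ranged from 12.7 to 16.7 CPM with a median of 15.6. Its groups overlapped too, and the log2 fold change was 0.29 (SE 0.13, 1.22-fold). Each of the close pairs, Slfn8 with Slfn9 and Slfn3 with Slfn4, thus held 1 member that was called and 1 that was not with all tumors in the fit. The plot of all values by tumor shows the 5 called members beside these 2.

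**Figure D1:**
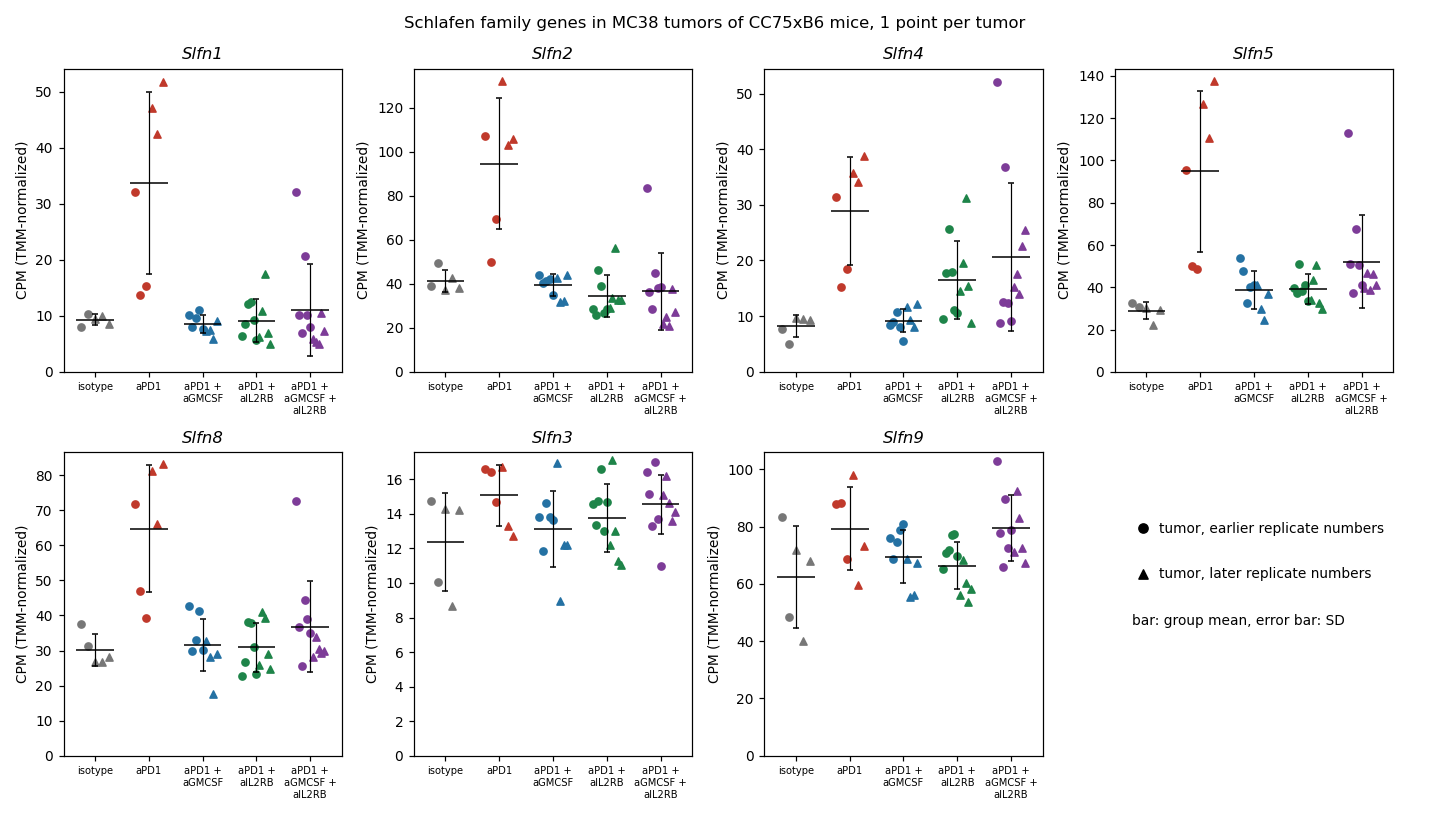
CPM (linear axis from 0, TMM-normalized) of each of the 7 Schlafen genes in the 42 tumors by treatment group, 1 point per tumor, circles for earlier and triangles for later replicate numbers, bars for group means and error bars for SD. Slfn1 sits between 13.7 and 51.7 in the aPD1 tumors, above all isotype tumors, while the groups of Slfn3 and Slfn9 overlap.

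Deposited counts are estimates that divide reads between similar genes, so they bear on the close pairs. Slfn3 had counts that were not whole in 39 of 42 tumors and Slfn9 in 38, against 9 for Slfn8, 4 for Slfn4 and 0 for Slfn1, Slfn2 and Slfn5. Adding Slfn3 and the neighbouring pseudogene Gm11427 gave exactly whole counts in 38 tumors, while Slfn3 + Slfn4 gave them in 4. Adding Slfn8, Slfn9 and Slfn10-ps gave a sum within 0.1 of a whole number in all 42 tumors. Of the 100-base windows of the reference transcripts, 2.92% in Slfn3, 3.71% in Slfn9, 3.38% in Slfn8, 0.271% in Slfn4, 0.128% in Slfn2, 0.238% in Slfn5 and 0% in Slfn1 occurred unchanged in another gene. With sums chosen after the counts had been examined, the aPD1 against isotype log2 fold change was 0.13 (SE 0.09) for Slfn3 + Gm11427 and 0.41 (SE 0.14) for Slfn9 + Slfn10-ps, against 0.29 and 0.35 for Slfn3 and Slfn9 alone. The sum of Slfn8, Slfn9 and Slfn10-ps, which does not depend on how reads were divided among them, gave 0.66 (SE 0.15).

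Blocking GM-CSF under aPD1 was the next comparison. The same 5 members, Slfn1, Slfn2, Slfn4, Slfn5 and Slfn8, were called, all 5 lower in aPD1 + aGMCSF than in aPD1 tumors, beside 13.5% of all genes. Here 5 of 6 macrophage, 3 of 5 monocyte, 2 of 6 T cell and 0 of 4 NK cell markers were lower too. So were 3 of 4 neutrophil and 2 of 4 fibroblast markers and Ptprc. Higher were 1 of 4 fibroblast and 1 of 5 dendritic cell markers. No B cell, MC38 or epithelial marker was called. This and the following comparisons with aPD1 rest on the same 6 aPD1 tumors as the first, so they are not independent of it. Slfn1 ranged from 5.81 to 11.1 CPM (median 8.08) in the 9 tumors, a log2 fold change of -1.99 (SE 0.31, 3.98-fold lower). Slfn2 ranged from 31.9 to 44.1 CPM (median 41.4), a log2 fold change of -1.27 (SE 0.20). Slfn4 ranged from 5.61 to 12.1 CPM (median 8.86), a log2 fold change of -1.65 (SE 0.30). No aPD1 + aGMCSF tumor reached the lowest aPD1 tumor for these 3 genes. Over all genes, 2.86% had groups that did not overlap. Slfn5 ranged from 24.5 to 53.6 CPM (median 40.01), a log2 fold change of -1.30 (SE 0.20). Slfn8 ranged from 17.7 to 42.7 CPM (median 30.02), a log2 fold change of -1.04 (SE 0.18). For Slfn5 replicate 1, and for Slfn8 replicates 1 and 4, lay above the lowest aPD1 tumor. Slfn3 ranged from 8.96 to 16.9 CPM and Slfn9 from 55.4 to 80.9 CPM, with log2 fold changes of -0.20 (SE 0.12) and -0.19 (SE 0.12). Against isotype, aPD1 + aGMCSF tumors had 0 of 7 members called by edgeR, 0 by DESeq2 and 0 at an unadjusted p under 0.05, beside 0% of all genes called (938 of 16932 at an unadjusted p under 0.05, and 6 called by DESeq2). The members' log2 fold changes in that comparison ran from -0.13 (SE 0.34) for Slfn1 to 0.42 (SE 0.22) for Slfn5.

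Blocking the IL-2 receptor beta chain under aPD1 again gave 5 of 7 members called and lower than in aPD1 tumors, beside 27.4% of all genes. Here 4 of 4 NK cell, 5 of 6 T cell, 4 of 6 macrophage and 4 of 5 monocyte markers were lower too. So were 2 of 4 B cell, 3 of 4 fibroblast and 1 of 4 neutrophil markers and Ptprc. Of 5 dendritic cell and 5 MC38 or epithelial markers, 1 each was lower and 1 each higher, and 1 of 4 fibroblast markers was higher. The part of these markers in the members' values was not tested. No member had groups that did not overlap here, against 4.22% of all genes. Slfn1 ranged from 4.89 to 17.4 CPM (median 8.57) in the 11 tumors, with a log2 fold change of -1.89 (SE 0.29). Slfn2 ranged from 25.6 to 56.3 CPM (median 32.4), with a log2 fold change of -1.46 (SE 0.19). Slfn5 ranged from 29.6 to 51.0 CPM (median 38.2), with a log2 fold change of -1.28 (SE 0.19), and Slfn8 from 22.8 to 41.1 CPM (median 29.1), with -1.07 (SE 0.17). A few tumors reached the range of the aPD1 tumors, with replicates 3 and 9 the highest for Slfn2 and Slfn5. Slfn4 fell by 0.81 on the log2 scale (SE 0.28) and ranged from 8.84 to 31.2 CPM with a median of 15.5. Its call was lost without aPD1 replicate 4, 5 or 6, with log2 fold changes of -0.74, -0.76 and -0.71. Slfn3 ranged from 11.1 to 17.1 CPM with a log2 fold change of -0.13 (SE 0.11), and Slfn9 from 53.7 to 77.5 CPM with -0.26 (SE 0.12). With the replicate set as a term Slfn9 was called as well (-0.27, SE 0.11), which made 6 of 7, and likewise with only the groups compared in the fit. Without aPD1 replicate 5 Slfn9 was called in place of Slfn4. The sum Slfn9 + Slfn10-ps was called in this comparison, at -0.33 (SE 0.11). Against isotype, aPD1 + aIL2RB tumors had 0 of 7 members called by edgeR, beside 3.20% of all genes, 1 at an unadjusted p under 0.05 and 1 by DESeq2. By both it was Slfn4, at a log2 fold change of 1.01 (SE 0.33), while the other 6 lay between -0.26 (Slfn2) and 0.44 (Slfn5).

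With both antibodies, 4 of 7 members were called and lower than in aPD1 tumors, beside 27.4% of all genes. Here 4 of 4 NK cell, 6 of 6 T cell, 4 of 6 macrophage and 4 of 5 monocyte markers were lower too. So were 2 of 4 neutrophil, 1 of 4 B cell, 1 of 4 fibroblast and 2 of 5 MC38 or epithelial markers and Ptprc. Of 5 dendritic cell markers 1 was lower and 1 higher, and 1 of 4 fibroblast markers was higher. The 4 called members were Slfn1, Slfn2, Slfn5 and Slfn8. Their log2 fold changes were -1.63 (SE 0.29), -1.38 (SE 0.19), -0.87 (SE 0.19) and -0.82 (SE 0.17). Slfn4 was at -0.51 (SE 0.28), Slfn3 at -0.05 (SE 0.11) and Slfn9 at 0.00 (SE 0.12). In this group 2 tumors stood high. Replicate 1 had 32.2 CPM of Slfn1, 83.6 of Slfn2, 52.1 of Slfn4, 113 of Slfn5 and 72.6 of Slfn8, all within or above the aPD1 range, and replicate 4 had 20.7, 44.6, 36.7, 67.4 and 44.5 CPM. The other 9 tumors had at most 10.49 CPM of Slfn1 and at most 25.5 of Slfn4. Replicate 4 also had the smallest total of the series. Without replicate 1, a choice made after its values were seen, 5 members were called, with Slfn4 at a log2 fold change of -0.76 and Slfn5 at -1.05. Against isotype, 2 of 7 members were called and higher with both antibodies, Slfn4 at 1.31 (SE 0.33, 2.49-fold) and Slfn5 at 0.85 (SE 0.22, 1.80-fold), beside 10.2% of all genes. DESeq2 called 3, with Slfn9 added. The call of Slfn4 was lost without isotype replicate 2 (1.17) and that of Slfn5 without isotype replicate 4 (0.76), and neither was called within the earlier replicate numbers. For Slfn5 the 11 tumors, from 37.5 to 113 CPM, lay above all isotype tumors, as was so, or the reverse, for 1.62% of all genes, while the Slfn4 tumors, from 8.76 to 52.1 CPM, overlapped them.

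**Figure D2:**
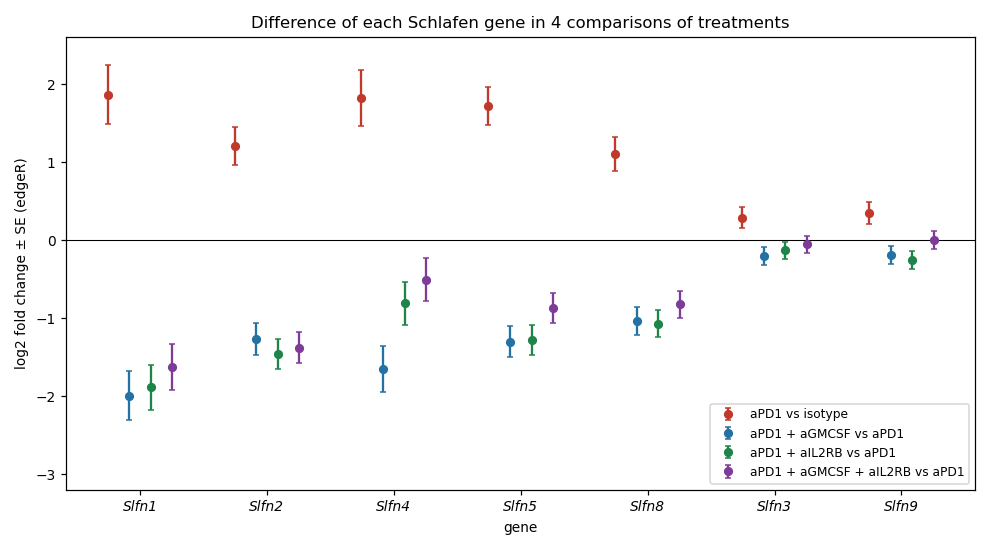
Log2 fold change with its SE (edgeR) of each Schlafen gene in 4 comparisons, aPD1 against isotype and each blocking treatment against aPD1. Slfn1 lies at 1.86 in the first comparison and between -1.99 and -1.63 in the others, Slfn4 at -1.65 with aGMCSF, -0.81 with aIL2RB and -0.51 with both, and Slfn3 and Slfn9 between -0.26 and 0.35 throughout.

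The comparisons among the blocking groups ask whether the antibodies differed from each other. Between aPD1 + aIL2RB and aPD1 + aGMCSF, 0 of 7 members were called by edgeR and 0 by DESeq2, with 1 (Slfn4, log2 fold change 0.84, SE 0.26) at an unadjusted p under 0.05, beside 1.52% of all genes called. Between both antibodies and aPD1 + aGMCSF, 1 of 7 was called, Slfn4, which was higher by 1.15 (SE 0.27, 2.22-fold), beside 2.13% of all genes. Between both antibodies and aPD1 + aIL2RB, 0 of 7 were called by edgeR and 0 by DESeq2, with 2 (Slfn5 and Slfn9) at an unadjusted p under 0.05, beside 0.00591% of all genes called. The log2 fold changes there ran from 0.08 for Slfn2 and Slfn3 to 0.41 for Slfn5. The interaction term, which asks how far both antibodies together depart from the sum of their separate changes, was called for 5 of 7 members, beside 8.34% of all genes. The same aPD1 tumors enter this term, so it is not independent of the comparisons with aPD1 that were known when the members were chosen. A positive term means a smaller decrease than the sum of the separate changes. It was 2.25 (SE 0.41) for Slfn1, 1.96 (SE 0.38) for Slfn4, 1.71 (SE 0.26) for Slfn5, 1.35 (SE 0.27) for Slfn2 and 1.29 (SE 0.24) for Slfn8 on the log2 scale. None of these 5 genes was called lower with both antibodies than with either alone. For Slfn3 it was 0.28 (SE 0.15) and for Slfn9 0.45 (SE 0.15). Slfn9 was called as well, making 6 of 7, with the replicate set as a term (0.47, SE 0.14), by DESeq2, and without aPD1 replicate 3 or 5 or isotype replicate 1 or 4. The interaction was also called for the sum Slfn9 + Slfn10-ps, at 0.52 (SE 0.15). Within the earlier replicate numbers alone 0 members were called and the 5 passed at an unadjusted p under 0.05, with terms from 1.07 (SE 0.32) for Slfn8 to 1.87 (SE 0.60) for Slfn4.

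The order of groups was read from the mean CPM of each member with its SD. For Slfn1 the order was aPD1 (33.7 ± 16.3, SD, n = 6), aPD1 + aGMCSF + aIL2RB (11.1 ± 8.23, n = 11), isotype (9.26 ± 0.986, n = 5), aPD1 + aIL2RB (9.15 ± 3.76, n = 11) and aPD1 + aGMCSF (8.47 ± 1.64, n = 9). Only the first step in that order was larger than the SD of the groups beside it. Slfn2 (94.5 ± 29.7 in aPD1, SD, n = 6) and Slfn8 (64.8 ± 18.03) behaved in the same way, with the other 4 groups between 34.4 ± 9.38 and 41.1 ± 4.93 CPM for Slfn2 and between 30.2 ± 4.61 and 36.8 ± 13.1 CPM for Slfn8. For Slfn5 the order was aPD1 (94.8 ± 38.1), both antibodies (52.1 ± 21.9), aPD1 + aIL2RB (39.1 ± 7.00), aPD1 + aGMCSF (38.5 ± 8.93) and isotype (28.9 ± 4.08). The first and the last of these steps were larger than the SDs beside them. For Slfn4 the order was aPD1 (29.0 ± 9.72), both antibodies (20.6 ± 13.3), aPD1 + aIL2RB (16.5 ± 6.98), aPD1 + aGMCSF (9.19 ± 2.05) and isotype (8.20 ± 1.95). Its only step larger than both SDs beside it was that from aPD1 + aIL2RB to aPD1 + aGMCSF, and not the step below aPD1. For Slfn9, from 79.5 ± 11.5 CPM with both antibodies to 62.4 ± 17.7 in isotype, and Slfn3, from 15.1 ± 1.77 in aPD1 to 12.4 ± 2.82 in isotype, no step was larger than both SDs beside it.

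The ratio of Slfn4 to Slfn1 counts within a tumor does not depend on library size. Its median was 0.964 in isotype, 0.887 in aPD1, 1.12 in aPD1 + aGMCSF, 1.81 in aPD1 + aIL2RB and 1.79 in aPD1 + aGMCSF + aIL2RB tumors. The 11 aPD1 + aIL2RB tumors, from 1.215 to 2.333, lay above the 6 aPD1 tumors, from 0.750 to 1.207. The 11 tumors with both antibodies ran from 0.863 to 3.51 and overlapped every other group. This ratio was chosen after the values were seen, so it carries no test.

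**Figure D3:**
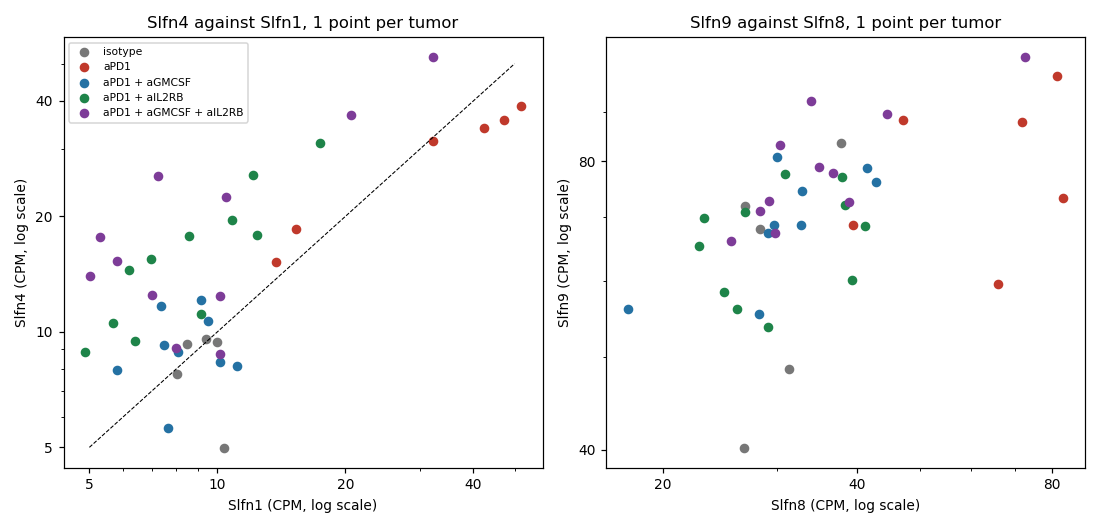
Slfn4 against Slfn1 and Slfn9 against Slfn8 in CPM on log axes, 1 point per tumor, colored by group, with a dashed line at equal CPM in the first panel. The 11 aPD1 + aIL2RB tumors lie at Slfn4 to Slfn1 count ratios of 1.215 to 2.333, and aPD1 tumors extend to 83.2 CPM of Slfn8 while Slfn9 stays between 59.6 and 98.1.

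Tumors also differ by their replicate numbers, a division that neither the labels nor the study's text names and that was known from an earlier reading of these data. The earlier numbers are isotype 1 and 2, aPD1 1 to 3, aPD1 + aGMCSF 1 to 5 and 1 to 6 of both aIL2RB groups (22 tumors), and the later ones the other 20. The sets overlapped on each of the first 4 principal components. Later against earlier tumors, with treatment in the model, differed in 25.1% of all genes and in 1 of 7 members, Slfn9. Its later tumors were lower by edgeR, with -0.18 on the log2 scale (SE 0.07) and an adjusted p = 0.0373. The call of Slfn9 was lost in 6 of the 17 alternative settings. The aPD1 group itself was split. Slfn1 averaged 20.4 CPM (13.7 to 32.1, n = 3) in the earlier and 47.1 CPM (42.4 to 51.7, n = 3) in the later aPD1 tumors, against 9.19 (n = 2) and 9.31 (n = 3) in isotype. Within the earlier tumors the aPD1 against isotype log2 fold change was 1.14 (SE 0.50) for Slfn1, 0.78 (SE 0.33) for Slfn2, 1.77 (SE 0.64) for Slfn4, 1.03 (SE 0.35) for Slfn5 and 0.61 (SE 0.31) for Slfn8. Within the later tumors it was 2.35 (SE 0.33), 1.55 (SE 0.21), 1.95 (SE 0.30), 2.22 (SE 0.19) and 1.51 (SE 0.18) for the same genes. The direction held in both, and Slfn4 differed least between them. No member was called in the earlier tumors, which hold 3 aPD1 and 2 isotype tumors and in which 2 of all genes were called, and 5 were called in the later ones, where 2177 genes were. By unadjusted p under 0.05, 5 members passed in the earlier tumors, Slfn1, Slfn2, Slfn3, Slfn4 and Slfn5, and Slfn8 did not. With aGMCSF, the log2 fold change against aPD1 in the earlier tumors was -1.13 (SE 0.38) for Slfn1, -0.89 (SE 0.26) for Slfn2, -1.37 (SE 0.47) for Slfn4, -0.59 (SE 0.27) for Slfn5 and -0.57 (SE 0.25) for Slfn8, with 0 members called and these 5 passing at an unadjusted p under 0.05. In the later tumors it was -2.68 (SE 0.30), -1.61 (SE 0.20), -1.84 (SE 0.27), -1.94 (SE 0.17) and -1.53 (SE 0.17), with all 5 called. With aIL2RB, the earlier tumors gave -1.17 (SE 0.36), -1.22 (SE 0.25), -0.50 (SE 0.45), -0.69 (SE 0.25) and -0.82 (SE 0.24) for the same genes, with Slfn1, Slfn2 and Slfn8 called. The later tumors gave -2.37 (SE 0.28), -1.64 (SE 0.18), -1.03 (SE 0.25), -1.74 (SE 0.16) and -1.28 (SE 0.16), with all 5 called. The log2 fold changes were thus nearer to 0 in the earlier tumors for each of these genes under either antibody, but the term for that difference between the sets was called for none of them. Both antibodies together were compared in the same way. In the earlier tumors the log2 fold change against aPD1 was -0.49 (SE 0.37) for Slfn1, -0.75 (SE 0.25) for Slfn2, -0.01 (SE 0.45) for Slfn4, -0.11 (SE 0.26) for Slfn5 and -0.32 (SE 0.24) for Slfn8, with 0 members called and 1, Slfn2, at an unadjusted p under 0.05. In the later ones it was -2.81 (SE 0.28), -2.12 (SE 0.19), -0.95 (SE 0.25), -1.57 (SE 0.16) and -1.36 (SE 0.16), with all 5 called. A term for this difference between the sets was called for 4 of 7 members, Slfn1, Slfn2, Slfn5 and Slfn8, beside 8.38% of 18068 genes. The members were chosen with their treatment differences known, so nothing is read from the counts of members called within a set. For the blocking groups, the share of all genes called in the later tumors is not given here.

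Other genes of the family were counted to see what lies just outside the list. The table held 4 more genes whose symbol starts with Slfn. Slfn10-ps, the pseudogene next to Slfn8, was the only one to pass the filter. It ranged from 3.43 to 4.47 CPM in isotype and from 5.34 to 11.4 CPM in aPD1 tumors. It rose with aPD1 by 1.11 on the log2 scale (SE 0.33), with an adjusted p = 0.0257 by edgeR. In aPD1 + aGMCSF against aPD1 tumors it fell by 1.096 on that scale (SE 0.27), with an adjusted p = 0.00581 by edgeR. It was also called lower than in aPD1 tumors with aIL2RB (-1.24, SE 0.26) and with both antibodies (-0.93, SE 0.26). Its counts share reads with Slfn9 and Slfn8. Slfn14, known from platelets and erythroid cells, had at most 6 counts, Slfnl1 at most 3 and Slfn5os at most 2.5. The pseudogene Gm11427, which shares reads with Slfn3, was not called in any of the comparisons and stood at a log2 fold change of -0.10 (SE 0.13) in aPD1 against isotype tumors.

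Neighbouring genes on the chromosome were compared in the same way. Of 27 tested genes within 500 kb of the cluster that are no Slfn genes, 3 were higher and 0 lower in aPD1 than in isotype tumors, with a median log2 fold change of 0.12. The 3 were the chemokine genes Ccl6 and Ccl9 and, named after its value was seen, Wfdc17 (0.97, adjusted p = 0.0384 by edgeR). The largest changes were in chemokine genes, Ccl6 at 1.17 (adjusted p = 0.0356 by edgeR), Ccl3 at 1.08 (adjusted p = 0.0966) and Ccl9 at 1.07 (adjusted p = 0.00558). In aPD1 + aGMCSF against aPD1 tumors 3 were higher and 6 lower, with Ccl6 at -1.41 and Ccl9 at -1.25. With aIL2RB, and likewise with both antibodies, 3 were higher and 7 lower than in aPD1 tumors, with Ccl3 at -1.60 and -1.63. The protein-coding gene next before the cluster, Unc45b (0.96), was not called in aPD1 against isotype.

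**Figure D4:**
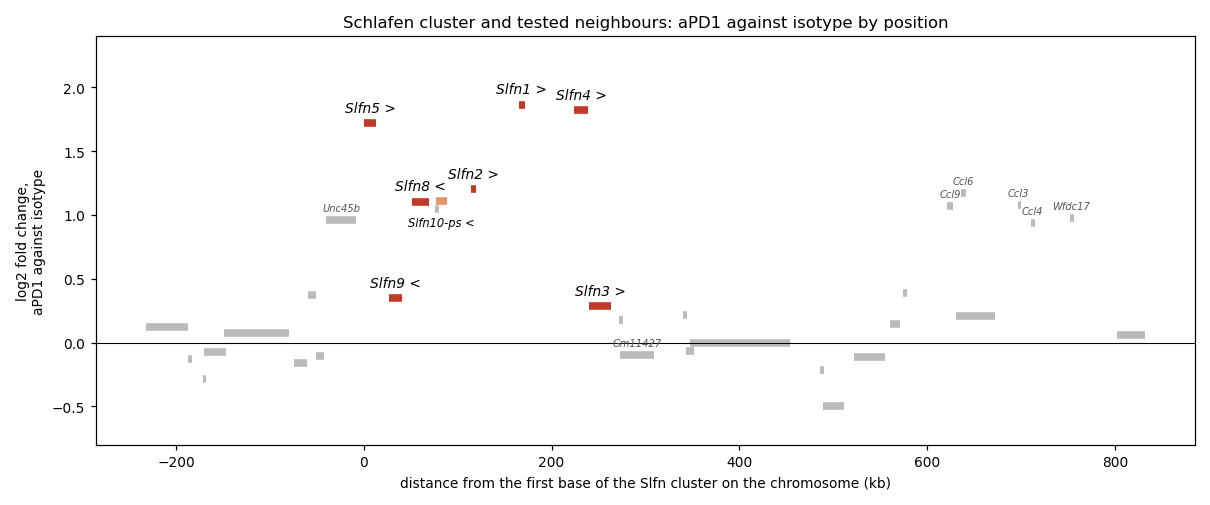
Log2 fold change of aPD1 against isotype tumors (edgeR) for each tested gene by its distance in kb from the first base of the Slfn cluster, with the 7 members in red, Slfn10-ps in orange, other genes in gray and > or < after a name for the strand. The 5 called members lie between 1.104 and 1.86, Slfn9 at 0.35 and Slfn3 at 0.29 lie below them, and the neighbours have a median of 0.12.

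Pathway lists were compared with the members by their counts. Of 28 type I interferon-stimulated genes, 23 rose and 0 fell in aPD1 against isotype tumors, with a median log2 fold change of 1.03. The largest were Oas3 (1.99), a sensor of double-stranded RNA, Oasl1 (1.97), Irf7 (1.94), a transcription factor of the interferon loop, and Mx1 (1.79), an antiviral GTPase. In aPD1 + aGMCSF against aPD1 tumors 25 of the 28 fell, with a median of -0.90, and in aPD1 + aIL2RB 21 fell, with a median of -0.63. Against isotype, 12 of the 28 were higher with both antibodies, 1 with aIL2RB and 0 with aGMCSF. Of 24 genes induced by interferon-gamma, 4 rose with aPD1, at a median of 0.75. These were Gbp5 (1.18), Cd274 (1.07), which encodes PD-L1, Cxcl10 (0.88) and Irf8 (0.84). With both antibodies all 24 fell against aPD1, at a median of -1.04, as did 19 of the 28 type I genes, at a median of -0.54. Against isotype, 3 of the 24 were lower with both antibodies, beside 10.2% of all genes called.

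Of 11 tested interferon ligands, receptors and signaling genes, 7 rose with aPD1, at a list median of 0.38, among them Stat2 at a log2 fold change of 0.79, Tyk2 at 0.48 and Irf9 at 0.45. Of 20 genes of the TLR, NF-kB and AP-1 pathway, 4 rose, Tlr9 (1.38), Tlr7 (1.06), Irak3 (1.03) and Tlr2 (0.59). Of 14 genes of lymphocyte quiescence, the process tied to Slfn2, 3 rose, among them Btg2 (0.85) and Klf3 (0.29), and the median was 0.15. Of 13 genes of tRNA cleavage and translation control 2 rose, among them the kinase Eif2ak2 (0.29), with a median of 0.01. Of 14 genes of the replication stress response 0 were called in aPD1 against isotype, with a median of -0.08, and 7 were lower with both antibodies than in isotype. All of these calls are from edgeR at an adjusted p under 0.05, and a list is described by its count and median beside the median of all genes (-0.002).

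Genes with the pattern most like each member were ranked by Spearman correlation of log2 CPM over the 42 tumors, a description in which tumors of a group share their treatment. Slfn1 was closest to Ifi209 (0.92), Cd274 (0.90), Ifi204, Ifi205 and Irgm1 (0.89 each). Slfn2 was closest to Slc15a3 (0.95), Fgl2 (0.95), Acod1, Fcgr4 and Ly6a (0.94 each). Slfn8 was closest to Parp14 (0.90), Ifi203 (0.89), Ifi213 (0.88), Dtx3l (0.88) and Stat2 (0.86). Slfn5 was closest to Ifi213 (0.86), Znfx1 (0.84), Trim30a (0.83), Rnf213 (0.82) and Ifit2 (0.82). Slfn4 had lower values, with Oasl1 (0.79), Ifi44 (0.78), Ereg (0.77), Oas2 (0.74) and Helz2 (0.74). Slfn9 was closest to Asxl2 (0.79), Rapgef6, Itsn2, Ranbp2 (0.78 each) and Diaph2 (0.77), and Slfn3 to Hip1 (0.65), Htt (0.63), Rnf213 (0.61), Wdfy3 (0.61) and Smg1 (0.60). Rnf213 was thus among the 5 nearest of both Slfn5 and Slfn3, and the 5 nearest of Slfn9 held none of those of Slfn8.

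With the group means taken away, only differences between tumors of the same group remained. Slfn1 was closest to Ifi209 (0.93), Ifi204 (0.90), Ifi205 (0.88), Ifi211 (0.86) and Ifi206 (0.86). Slfn2 was closest to Cfb (0.91), Cyba, Slc15a3, Samhd1 (0.90 each) and Acod1 (0.89). Slfn5 was closest to Ifi203 (0.87), Parp14 (0.87), Ifi213 (0.85), Gm8995 and Cd69 (0.82 each), and Slfn8 to Dtx3l, Parp14, Ifi203 (0.89 each), Stat2 (0.88) and Ifi213 (0.86). Slfn4 was now nearest to Ptgs2 (0.78), the inducible cyclooxygenase, Ereg (0.77), Socs1 (0.76), Il1rl1 and Ccl7 (0.73 each). Slfn9 was nearest to Cpne3 (0.84), Zfp871 (0.83), Asxl2, Aak1 and Apc (0.82 each), and Slfn3 to Prr14l (0.73), Tmem131 (0.72), Zfp971, ENSMUSG00000054178 (0.70 each) and Rnf213 (0.70). Among the members, these deviations were most alike for Slfn1 and Slfn2 (0.84), Slfn5 and Slfn8 (0.84) and Slfn1 and Slfn8 (0.82), and Slfn3 was nearest to Slfn9 (0.77) rather than to its relative Slfn4 (0.26). Slfn9 reached 0.44 with Slfn8.

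Deviations of the members were also set beside those of the marker and interferon lists within groups, by Spearman correlation over the 42 tumors. Here the group mean was taken away both from the member's log2 level and from the log2 of the list's summed CPM. For the type I list the values were 0.87 for Slfn8, 0.79 for Slfn5, 0.76 for Slfn1, 0.73 for Slfn2, 0.47 for Slfn4, 0.32 for Slfn9 and 0.25 for Slfn3. For the interferon-gamma list they were 0.85 for Slfn2, 0.81 for Slfn8, 0.79 for Slfn1, 0.67 for Slfn5, 0.33 for Slfn4, 0.25 for Slfn3 and 0.23 for Slfn9, so that Slfn1 and Slfn2 lay higher and Slfn5, Slfn8 and Slfn4 lower than with the type I list. For the monocyte markers they were 0.74 for Slfn2, 0.67 for Slfn1, 0.63 for Slfn5, 0.54 for Slfn8, 0.50 for Slfn4, 0.14 for Slfn9 and 0.03 for Slfn3. Macrophage markers gave 0.57 (Slfn2), 0.50 (Slfn5), 0.43 (Slfn8), 0.41 (Slfn1), 0.27 (Slfn9), 0.06 (Slfn3) and -0.08 (Slfn4). T cell markers gave 0.67 (Slfn2), 0.54 (Slfn8), 0.54 (Slfn1), 0.52 (Slfn5), 0.27 (Slfn9), 0.11 (Slfn3) and -0.03 (Slfn4). Fibroblast markers gave 0.39 (Slfn5), 0.34 (Slfn1), 0.29 (Slfn2), 0.26 (Slfn8), 0.13 (Slfn4), 0.08 (Slfn9) and 0.01 (Slfn3). Among tumors of the same treatment, the values of Slfn4 were thus positive for the monocyte markers and near 0 for the macrophage and T cell markers. The monocyte sum rested mostly on Ccr2 and Fcgr1, at medians of 83.1 and 65.5 CPM, against 8.85 for Plac8, the next highest. These points share libraries and depth, and the part of cell numbers in them was not tested.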

How the data were processed

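The authors deposited expected counts per gene for 42 poly(A) RNA-seq libraries (KAPA mRNA HyperPrep, paired-end reads of 100 bases). They aligned reads with Bowtie 1.2.3 to founder-strain transcriptomes built on GRCm38 (mm10), and apportioned reads between genes and alleles with gbrs; use of strand is not given in the sources used here. Of all deposited values, 15.2% were not whole. Tumor cells are C57BL/6 and hosts are F1, so alleles of both contribute to a gene's count. Symbols were matched for 26629 of 26811 genes.

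Here counts were rounded and tested with edgeR 4.0.16 (R 4.3.3), using filterByExpr (minimum count 10, minimum total 15), TMM, 1 model of the 5 groups and quasi-likelihood tests for 10 pairs of groups, with Benjamini-Hochberg adjustment over 16932 genes and a threshold of 0.05. SE is the log2 fold change divided by the root of F. DESeq2 1.42.0 and the other alternatives are in the closing section. Log2 CPM used a prior count of 2. The members and lists were chosen with earlier results of these data known. Genes named are the members, other Slfn genes, the 5 genes most like each member, up to 4 called genes per list with the largest change in aPD1 against isotype, and the 3 largest changes among neighbours, with other names chosen after their values were seen. In data simulated for aPD1 against isotype over 16932 genes, 73 of 100 genes changed by 1 on the log2 scale and 79 of 100 changed by 2 were recovered, with 11 unchanged genes called, and of the changed genes with a mean count of at least 100 these were 132 of 135. Labels name separate biological replicates, and over 861 pairs of libraries the lowest chi-square per gene was 5.64, so none was a repeat. Some genes counted in the lists are not reported here by name.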

Additional observations from a re-analysis of the deposited data

Results flagged for a closer look

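The decrease with both antibodies against aPD1 differed between tumors of later and earlier replicate numbers for 4 members, as called by edgeR for the difference itself (adjusted over 18068 genes, added after the data were examined). The members were chosen with their treatment differences known, so the values are a description. The difference of the log2 fold changes, later minus earlier, was -2.31 for Slfn1, -1.35 for Slfn2, -1.45 for Slfn5 and -1.02 for Slfn8. Of 70 such differences tested for the members, 4 were called, all in this comparison. Both the aPD1 tumors, higher in the later set, and the tumors with both antibodies, where the high replicates 1 and 4 belong to the earlier set, enter it. In the groups of 5, 6 and 9 tumors, none of 21 sets of values (7 members in 3 groups) held a tumor that stood apart by Dixon's criterion. The groups of 11 tumors were not examined in this way.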

How the results depend on the processing

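Log2 fold changes of the members were recomputed under 22 alternatives for the pairs of groups, the interaction and, where possible, later against earlier numbers. Of these 1806 values 1731 moved by less than their SE and 75 by more, as did 39 and 16 of 55 values from sums of similar genes, and 0 called ones changed sign. Within the earlier replicate numbers alone, the count of members called was 0 for aPD1 against isotype, 0 for aPD1 + aGMCSF against aPD1, 3 for aPD1 + aIL2RB against aPD1, 0 for both antibodies against aPD1, 0 against isotype and 0 against aPD1 + aGMCSF, and 0 for the interaction. Fewer tumors enter these fits. For aPD1 + aIL2RB against isotype the count was 1 with DESeq2, 1 with only the groups compared in the fit and 1 without replicate 1 of both antibodies. Against aPD1 + aGMCSF it was 1 in the last pair of settings. Later against earlier numbers gave 0 with a total of at least 5 counts as filter, 0 without replicate 1 and 0 without replicate 4 of both antibodies, and leaving out 1 isotype or aPD1 tumor gave 0 to 1, with 0 without isotype replicate 1 or 4 or aPD1 replicate 5. The tumors left out in turn were those of isotype and aPD1 and replicates 1 and 4 of both antibodies, and the others were not left out. For both antibodies against isotype, leaving out 1 of these gave 1 to 3 members, with 1 without isotype replicate 2 (Slfn5 alone) or 4 (Slfn4 alone). Leaving out 1 of them gave 5 to 6 for aPD1 against isotype, 5 for aPD1 + aGMCSF against aPD1, 4 to 5 for aPD1 + aIL2RB against aPD1, 4 to 5 for both antibodies against aPD1 and 5 to 6 for the interaction. With the replicate set as a term, 6 were called for aPD1 + aIL2RB against aPD1 and 6 for the interaction, the added gene being Slfn9 in both. The causes were not tested. With the replicate block the counts were 5, 5, 5 and 4 for aPD1 against isotype and the 3 blocking groups against aPD1, and 3 for both antibodies against isotype. The labels do not say that a number marks shared animals or days. Same-numbered tumors of different groups correlated at 0.03 on average after the group means were taken away, with 16 of 67 pairs over 0.1. Pairs of other numbers averaged -0.004, with 104 of 623 over 0.1. Within the same set the averages were 0.062 for the same and 0.056 for other numbers, so the numbers were not read as pairs. Calls over all genes depended on the setting too. Those of aPD1 against isotype went from 1475 to 2 within the earlier numbers, 667 without aPD1 replicate 4, 975 without aPD1 replicate 6 and 755 without isotype replicate 4. Those of aPD1 + aGMCSF against aPD1 went from 2289 to 27 within the earlier numbers and 1199 without aPD1 replicate 4. Those of both antibodies against aPD1 went from 4634 to 934, and those of aPD1 + aIL2RB from 4647 to 2713, within the earlier numbers. Calls of both antibodies against isotype ran from 338 (earlier numbers) to 3941 (replicate block) around 1726, with 632 and 479 without isotype replicates 2 and 4. Calls of aPD1 + aIL2RB against isotype ran from 226 to 2235 around 542, of both antibodies against aPD1 + aGMCSF from 46 to 1285 around 360, of aPD1 + aIL2RB against aPD1 + aGMCSF from 62 to 476 around 258, and of the interaction from 34 to 1888 around 1412. Between both antibodies and aPD1 + aIL2RB they ran from 0 to 342 around 1, and between aPD1 + aGMCSF and isotype from 0 to 6 around 0. Scaled by library size alone, higher and lower calls were 1402 and 1120 in place of 807 and 1482 for aPD1 + aGMCSF against aPD1, 3125 and 1981 in place of 2198 and 2449 for aPD1 + aIL2RB, and 3279 and 1879 in place of 2215 and 2419 for both antibodies. The lowest count of a member was 91, for Slfn4, against 681 for Slfn9.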
